A study of Mus musculus with 6 samples.

Results

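Chemokines are small secreted proteins that steer blood cells through receptors coupled to G proteins. The 9 genes described here comprise 5 CC chemokines (Ccl3, Ccl4, Ccl5, Ccl6 and Ccl9) and 4 chemokine receptors (Ccr1, Ccr2, Ccr9 and Cxcr4). They were taken as every non-control array probe carrying one of these gene names, which gave 10 probes (2 for Ccr9, 1 for each other gene) of 55681 probes on the array. The genes were chosen with their measured signal in multipotent progenitors (MPPs) and haematopoietic stem cells (HSCs) known, Ccl3 and Ccl9 being selected on their far higher signal in MPPs, so member values for that contrast, in both genotypes, are given as a description with no test.

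HSCs maintain blood formation for life, and MPPs are their early descendants, which keep the capacity to form all blood lineages but have lost lasting self-renewal. Both populations were sorted by FACS from C57BL6 mice aged 2 to 3 months, either wild type (WT) or Bmi1 knockout (KO). The protein made from Bmi1 is part of Polycomb repressive complex 1, which silences genes through chromatin. Each of 6 microarrays held 10 µg of RNA from 1 KO sample labelled red (Cy5) against 1 WT sample labelled green (Cy3), and there were 3 HSC and 3 MPP arrays. The labels call the replicates biological but give neither the extent of the Bmi1 deletion nor whether animals were pooled. The dyes were never exchanged, so a probe's dye bias cannot be told apart from genotype, and levels were compared only within a dye.

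The arrays carried signal well above background for 72.5% to 82.2% of probes in green and 78.8% to 83.9% in red. Log2 levels correlated at 0.841 to 0.869 among WT HSC samples and at 0.907 to 0.927 among WT MPP samples. Between the populations they correlated at 0.799 to 0.916 in WT. In KO the ranges were 0.873 to 0.909 among HSCs, 0.939 to 0.963 among MPPs and 0.851 to 0.932 between them. In WT, HSC replicate 1 was closer to MPP replicate 1 (0.916) than to any other HSC sample. In KO this held for HSC replicates 1 (0.910) and 3 (0.932), again with MPP replicate 1. That MPP array lay in the same slide row as the HSC arrays. KO HSC replicate 3 was also closer to MPP replicate 3 (0.918), from the other row, than to any other HSC sample. KO/WT ratios hardly agreed between replicate arrays, with correlations from -0.07 to 0.08 among HSC arrays and from -0.01 to 0.20 among MPP arrays. Of 12 Bmi1 ratios (2 probes on 6 arrays), 6 were below 0, with a range of -2.42 to 1.36. A probe outside the deleted part checks nothing, so KO here means the sample labelled KO. Among the population markers, Flt3, the receptor tyrosine kinase that marks MPPs, was higher in MPPs by 3.03 (log2, SE 0.29) in WT and 2.92 (SE 0.30) in KO (limma, adjusted p = 0.0289 and 0.0224). With a slide row term the values were 2.98 and 3.08 and no longer passed (adjusted p = 0.379 and 0.337), and with 1 array left out the adjusted p ranged from 0.0639 to 0.147 in WT and from 0.0411 to 0.118 in KO. The summed signal of 7 MPP markers was 45800 to 52800 in WT MPPs against 7530 to 13100 in WT HSCs, and that of 10 HSC markers was 22200 to 24600 against 29500 to 42700.

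CC chemokines carry their first pair of conserved cysteines side by side and mostly attract myeloid cells and lymphocytes. Ccl3 and Ccl4 are the macrophage inflammatory proteins 1 alpha and beta, and Ccl3 binds Ccr1 and is known to restrain the cycling of early haematopoietic cells. Ccl6 and Ccl9 are rodent chemokines that act through Ccr1, and Ccl5 is best known as a product of T cells and platelets. Among the receptors, Cxcr4 answers the stromal chemokine Cxcl12 and holds stem and progenitor cells in the marrow, Ccr2 answers Ccl2 and governs the exit of monocytes from marrow, and Ccr9 answers Ccl25 and guides progenitors into the thymus.

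The 5 ligand probes lie within 139 kb of chromosome 11 in mm9, in the order Ccl5, Ccl9, Ccl6, Ccl3 and Ccl4. Their positions are chr11:83339296-83339355 (Ccl5, minus strand), chr11:83388223-83388282 (Ccl9, minus), chr11:83401997-83402056 (Ccl6, minus), chr11:83461358-83461417 (Ccl3, minus) and chr11:83478052-83478111 (Ccl4, plus). Levels are log2 signals after background correction and quantile normalization within a dye, listed for replicates 1, 2 and 3. Levels of different probes are not compared, since probes differ in how brightly they hybridize. The offset added during background correction compresses dim signals, so differences from a dim group are understated. In sorted bulk samples, more cells that express a gene and more of its RNA per cell cannot be told apart.

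Ccl9 separated the populations by a wide gap in both genotypes, the widest of the members in WT. In WT it stood at 6.92, 6.26 and 6.11 in HSCs and at 12.42, 12.02 and 12.28 in MPPs. In KO it stood at 9.23, 7.15 and 10.51 in HSCs and at 12.65, 13.37 and 12.70 in MPPs. Every MPP sample lay above every HSC sample of its genotype, by at least 5.10 in WT and 2.14 in KO. In green, Ccl9 was well above background in WT HSC replicate 1 but not in WT HSC replicates 2 and 3. In red, every KO HSC sample passed that mark. Red had more probes past it than green on every array, so the genotypes are not compared by it. The MPP mean exceeded the HSC mean by 5.81 (12.24 ± 0.20 against 6.43 ± 0.43, SD, n = 3) in WT. Because the HSC mean rests mostly on signals near background and the offset, no fold is given, and Agilent's processed signals, which carry no offset, gave a WT difference of 7.94. The corresponding difference in KO was 3.95 (12.91 ± 0.40 against 8.96 ± 1.70, SD, n = 3), or 15.4-fold. The WT value was 5.65 to 6.06 with any 1 array left out, whereas the KO value was 3.04 without HSC replicate 2 and 4.72 without HSC replicate 3.

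Ccl3 showed the same order, with a wider spread among HSCs. In WT it stood at 5.99, 5.96 and 9.0 in HSCs and at 10.21, 11.44 and 11.85 in MPPs. In KO it stood at 6.43, 6.15 and 9.89 in HSCs and at 12.18, 12.58 and 12.65 in MPPs. In both genotypes only HSC replicate 3 gave a signal well above background among the HSC samples, and it alone approached the MPPs. The MPP mean lay 4.18 above the HSC mean in WT (11.16 ± 0.85 against 6.98 ± 1.75, SD, n = 3). In KO it lay 4.98 above (12.47 ± 0.26 against 7.49 ± 2.08, SD, n = 3). With 2 of 3 HSC samples of each genotype near background, no fold is given, and the processed signals gave differences of 6.89 and 7.06. Leaving out HSC replicate 3 raised the differences to 5.19 and 6.18, and leaving out HSC replicate 2 lowered them to 3.67 and 4.31.

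Ccl4, the divergently transcribed neighbour of Ccl3, separated the populations in KO but not in WT. WT HSCs had levels of 8.08, 6.30 and 10.82, and WT MPPs had levels of 9.23, 11.90 and 12.07. KO HSCs had levels of 8.78, 10.30 and 11.71, and KO MPPs had levels of 13.07, 14.12 and 13.73. In WT the value of MPP replicate 1 fell below that of HSC replicate 3, so the groups overlapped. The difference of means was 2.66 in WT (SD 2.28 in HSCs and 1.60 in MPPs) and 3.37 in KO (SD 1.47 and 0.53). Without HSC replicate 3 these were 3.88 and 4.10. Without HSC replicate 2, whose WT signal was not well above background, the WT difference was 1.61. It was 3.58 without MPP replicate 1, and the KO difference was 2.63 without HSC replicate 1. The processed signals gave 3.50 in WT and 3.51 in KO.

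The remaining ligands did not separate the populations, although Ccl6 lies between Ccl9 and Ccl3. Ccl6 in WT stood at 7.49, 8.25 and 8.72 in HSCs and at 9.01, 7.59 and 9.34 in MPPs. In KO it stood at 9.59, 9.80 and 11.29 in HSCs and at 10.23, 10.65 and 10.82 in MPPs. The groups overlapped in both genotypes, with differences of 0.49 in WT and 0.34 in KO. Ccl5 in WT stood at 9.26, 9.84 and 9.55 in HSCs and at 9.46, 10.76 and 9.76 in MPPs, a difference of 0.44. Ccl5 in KO stood at 11.04, 11.69 and 10.40 in HSCs and at 11.08, 10.67 and 10.77 in MPPs, a difference of -0.20. Its groups also overlapped in both genotypes.

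**Figure D1:**
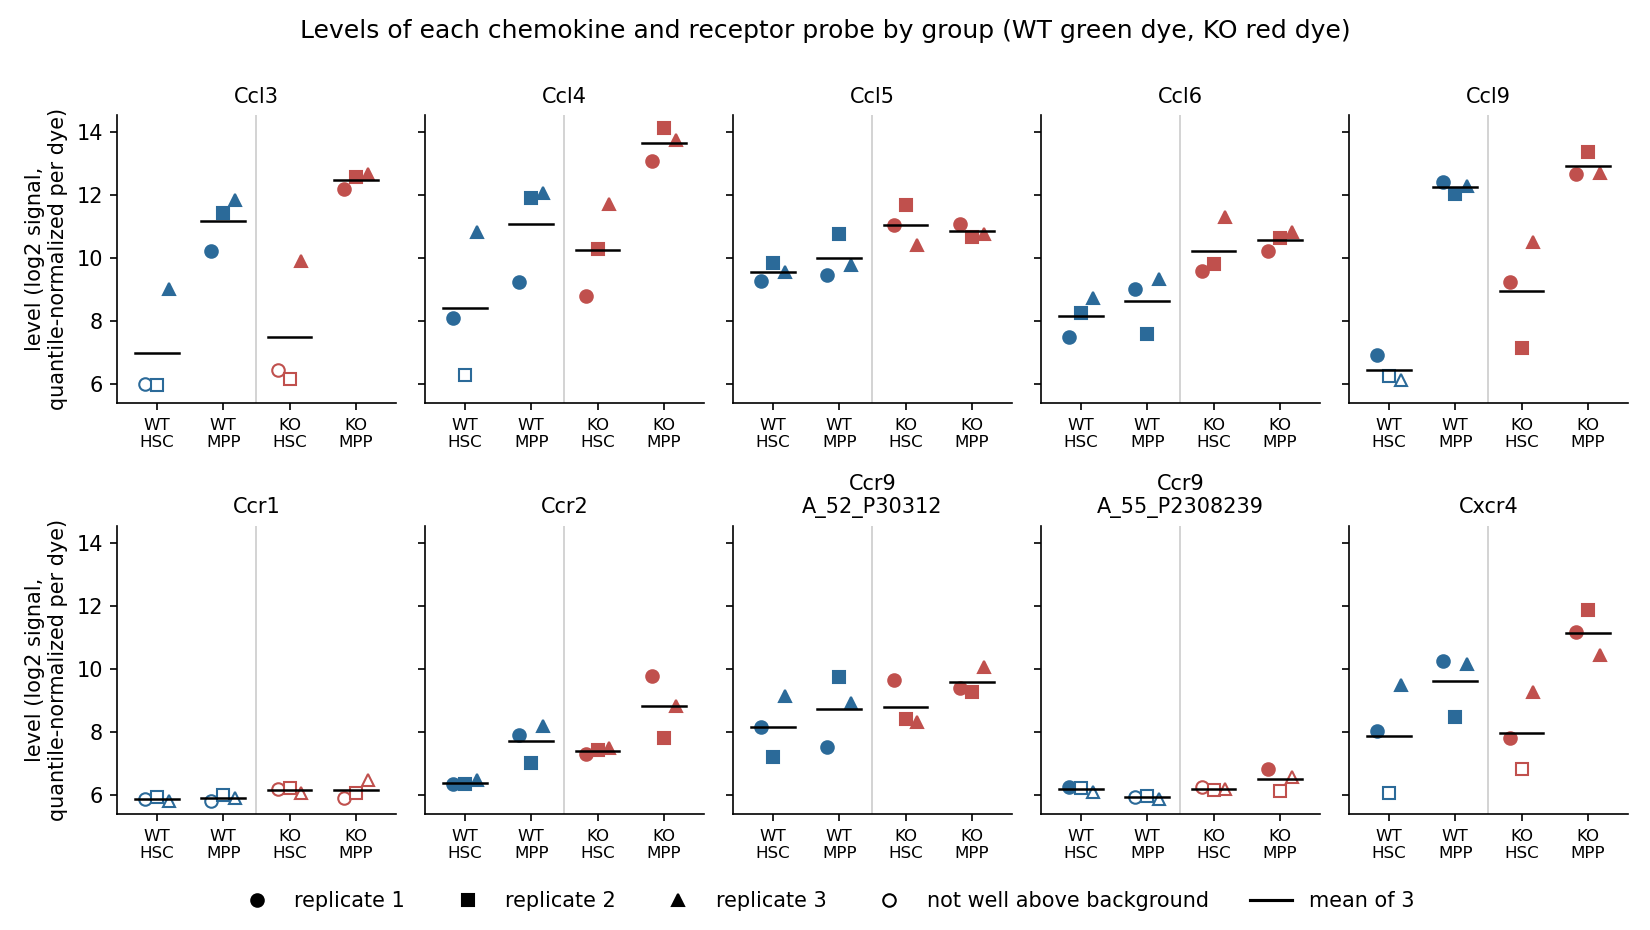
Log2 level of each of the 10 probes (vertical axis) in WT HSCs, WT MPPs, KO HSCs and KO MPPs, with 1 point per sample, the shape giving the replicate and the line the mean of 3. Open points were not well above background. Ccl9 and Ccl3 lie higher in all MPP samples than in all HSC samples of the same genotype, and Ccl5 and Ccl6 overlap.

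The 250 bases before the start of Ccl9, Ccl3 and Ccl6 are shown because these neighbouring genes differed in their levels, the first 2 separating MPPs from HSCs in both genotypes and the third not. The sequences are RefSeq's for GRCm38.p6, 5′ to 3′ on the gene's own strand, which is the minus strand for all 3. RefSeq promoters matched 7 of the 9 genes, all but Ccl4 and Ccl5. Capitals mark every match, on either strand, to TATAAA (a core promoter element), GAGGAA (the core bound by ETS factors such as PU.1), TTGCNNAA (C/EBP), TGANTCA (AP-1) or the NF-kappaB consensus.
Ccl9, chr11:83578637-83578886: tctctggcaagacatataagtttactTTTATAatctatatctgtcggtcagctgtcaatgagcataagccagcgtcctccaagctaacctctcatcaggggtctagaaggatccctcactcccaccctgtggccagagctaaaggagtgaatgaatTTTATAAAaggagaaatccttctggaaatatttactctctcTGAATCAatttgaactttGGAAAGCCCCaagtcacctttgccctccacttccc
Ccl3, chr11:83649379-83649628: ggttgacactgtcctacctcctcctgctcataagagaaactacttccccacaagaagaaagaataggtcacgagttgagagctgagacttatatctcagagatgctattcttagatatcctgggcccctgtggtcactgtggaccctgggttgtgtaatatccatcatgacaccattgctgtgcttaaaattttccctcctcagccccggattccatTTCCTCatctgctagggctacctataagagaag
Ccl6, chr11:83593088-83593337: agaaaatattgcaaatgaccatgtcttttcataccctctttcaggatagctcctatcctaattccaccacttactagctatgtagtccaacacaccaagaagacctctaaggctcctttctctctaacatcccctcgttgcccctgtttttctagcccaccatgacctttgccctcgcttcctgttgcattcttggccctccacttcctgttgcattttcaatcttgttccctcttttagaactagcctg
The Ccl9 window held TATAAA at 3 positions, starting 224, 94 and 92 bases before the start, the last 2 of which overlap on opposite strands. It also held an AP-1 match 53 bases and an NF-kappaB match 35 bases before the start. The Ccl3 window held 1 match, to GAGGAA on the opposite strand 33 bases before the start, and the Ccl6 window held none. Of 32851 mouse promoters of the same length, 12.4% held TATAAA, 23.3% GAGGAA, 9.56% TTGCNNAA, 6.75% TGANTCA and 7.25% the NF-kappaB consensus. These matches describe letters only and were not tested for binding.

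Of the receptors, Ccr2 lay higher in all MPP samples of both genotypes, by a smaller margin. WT HSCs had levels of 6.34, 6.34 and 6.46, and WT MPPs had levels of 7.90, 7.02 and 8.19. KO HSCs had levels of 7.30, 7.43 and 7.49, and KO MPPs had levels of 9.77, 7.82 and 8.83. MPP replicate 2 was the lowest MPP sample in both genotypes and lay 0.56 and 0.33 above the highest HSC sample. The means differed by 1.32 in WT (7.70 ± 0.61 against 6.38 ± 0.07, SD, n = 3) and by 1.40 in KO (8.81 ± 0.98 against 7.41 ± 0.10), the latter 2.64-fold. WT HSC levels lay near the lowest WT levels well above background on those arrays (6.06 to 6.15), so no WT fold is given. The processed signals gave larger differences, of 2.69 and 2.07.

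Cxcr4 varied widely among HSCs. In WT it stood at 8.02, 6.05 and 9.50 in HSCs and at 10.23, 8.48 and 10.17 in MPPs. In KO it stood at 7.80, 6.81 and 9.28 in HSCs and at 11.16, 11.85 and 10.43 in MPPs. HSC replicate 2 was not well above background in either genotype. The groups overlapped in WT, with a difference of 1.77 (SD 1.73 in HSCs and 0.99 in MPPs). They did not overlap in KO, with a difference of 3.19 (SD 1.24 and 0.71). No fold is given, since HSC replicate 2 was not well above background. Without HSC replicate 3 the differences were 2.59 and 3.84, and without HSC replicate 2 they were 0.87 and 2.61. The processed signals gave 2.82 and 3.90.

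Ccr9 and Ccr1 gave no separation. The brighter Ccr9 probe (A_52_P30312) stood at 8.15, 7.21 and 9.13 in WT HSCs and at 7.52, 9.75 and 8.92 in WT MPPs. It stood at 9.65, 8.39 and 8.32 in KO HSCs and at 9.40, 9.28 and 10.05 in KO MPPs. The groups overlapped, with differences of 0.56 and 0.79. The other Ccr9 probe was well above background in WT HSC replicate 1 and KO MPP replicate 1 and in no other sample. At these signals near background, its WT levels were lower in every MPP sample than in every HSC sample, with a difference of -0.26. Its KO groups overlapped, with a difference of 0.30. The Ccr1 probe was not well above background in any of the 12 samples, so no fold is given for this receptor of Ccl3, Ccl6 and Ccl9. The receptor probes for Ccr9 (chr9:123690334-123690393 and chr9:123680935-123680994), Ccr1 (chr9:123877790-123877849) and Ccr2 (chr9:124022948-124023007) lie within 342 kb, and the Cxcr4 probe lies at chr1:130485079-130485138, all in mm9.

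Of the 10 probes, 8 passed the signal filter, which asked for a signal well above background in every replicate of at least 1 of the 4 groups. The filter can pass a probe through the group where it is high, as it did for Ccl3 and Cxcr4, so the counts over these 8 are a description. In WT, 3 of 8 (Ccl3, Ccl9 and Ccr2) had every MPP sample above every HSC sample, against 8.24% of all probes. In KO, 5 of 8 (also Ccl4 and Cxcr4) did so, against 8.36% of all probes. The 3 WT genes did so in both genotypes, against 2.57% of all probes, and nothing is read from these counts because the same contrast chose the genes. The median difference of the 8 was 1.55 in WT and 2.29 in KO, and that of all probes was -0.08 in both. By limma at an adjusted p of 0.05, 0.282% of all probes were called between MPPs and HSCs in WT and 0.352% in KO.

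**Figure D2:**
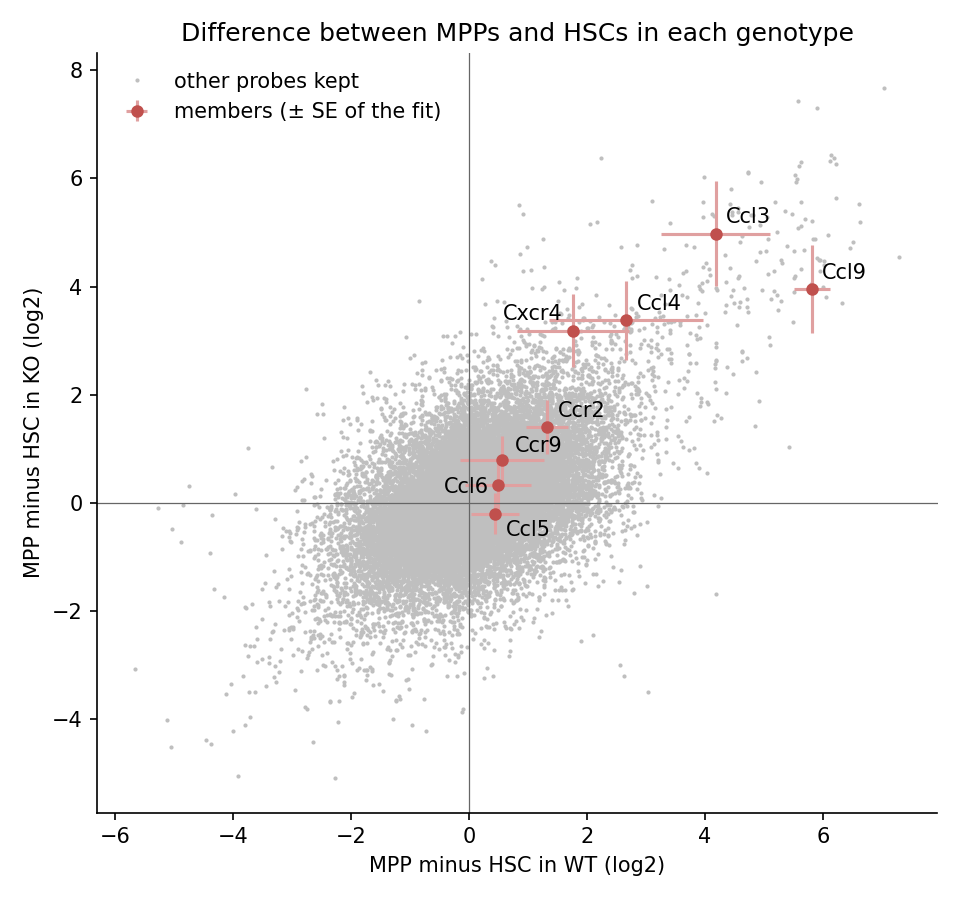
Difference between MPPs and HSCs (log2) in WT (horizontal axis) and KO (vertical axis). Grey points are the 44641 probes that passed the filter and red points are the 8 member probes among them with the standard error of the fit (SE). Ccl9 (5.81 in WT and 3.95 in KO) and Ccl3 (4.18 and 4.98) lie at the edge of the cloud, and Ccl5, Ccl6 and Ccr9 lie inside it.

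The arrays sat in 2 rows of the slide, with MPP replicate 1 beside the HSC arrays and MPP replicates 2 and 3 in the other row. Within the first row, the level of MPP replicate 1 minus the HSC mean was 5.99 (WT) and 3.69 (KO) for Ccl9. For Ccl3 it was 3.23 and 4.69, and for Ccr2 it was 1.52 and 2.37. For Cxcr4 it was 2.38 and 3.20, and for Ccl4 it was 0.83 and 2.80. For Ccl5 it was -0.09 and 0.04, for Ccl6 it was 0.85 and -0.00, and for Ccr9 it was -0.65 and 0.61. Each of these sets 1 MPP sample against 3 HSC samples and carries no test.

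Summed signals of granulocyte genes were also high in MPPs and in HSC replicate 3. The summed signal of 9 neutrophil genes was 5430, 1840 and 34100 in WT HSCs and 32500, 29100 and 63600 in WT MPPs. In KO it was 8230, 12800 and 79900 in HSCs and 150000, 84200 and 115000 in MPPs. HSC replicate 3 was the highest of the HSC samples in both genotypes, as it was for Ccl3, Ccl4, Ccl6, Ccr2 and Cxcr4. For Ccl9 it was the lowest HSC sample in WT (6.11) and the highest in KO (10.51). For Ccl5 and Ccr9 it was the lowest HSC sample in KO (10.40 and 8.32). The MPP means were higher for the primary granule genes, which early myeloid progenitors also express, by 4.60 in WT and 3.72 in KO for Mpo and by 3.64 and 2.13 for Elane. For the later genes the WT differences were smaller, at 0.40 for S100a8, -0.88 for S100a9, 0.09 for Camp and 0.74 for Ngp. S100a8 was at 13.01 in WT HSC replicate 3. In KO the MPP means of these later genes were all higher, by 2.54, 2.40, 0.35 and 1.29, with groups that overlapped. None of the named neutrophil genes passed the test (limma, adjusted p from 0.281 to 0.957 in WT and from 0.332 to 0.791 in KO). Between 6 and 8 of the 9 neutrophil genes were well above background in each HSC sample. The sum of 8 basophil, mast cell and eosinophil genes was 4990, 3850 and 14600 in WT HSCs against 16500, 23800 and 60000 in WT MPPs. In KO that sum was 7370, 16700 and 136000 in HSCs against 60900, 24300 and 85700 in MPPs, so that KO HSC replicate 3, also the highest KO HSC sample for Ccl9 and Ccl6, exceeded the MPPs.

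The sum of 10 monocyte and macrophage genes was 51500 to 55000 in WT HSCs against 43900 to 62600 in WT MPPs, and 242000 to 276000 against 240000 to 265000 in KO. The Itgam probe alone made up 33.3% to 68.1% of this sum in WT and 70.4% to 78.7% in KO. Within the list, the MPP mean of Ly6c1 was 3.75 higher in WT and 2.59 higher in KO (limma, adjusted p = 0.291 and 0.426), with HSC replicate 3 the highest HSC sample, and that of Ctss was 1.70 higher in KO without overlap (adjusted p = 0.196). Csf1r, the receptor that defines the lineage, stood at -0.26 and -0.28. The sum of 11 T and NK cell genes was 9780 to 14000 against 11200 to 13900 in WT and 16600 to 26200 against 20200 to 28800 in KO. The sum of 7 B lineage genes was 1630 to 3580 against 2760 to 4550 in WT and 3450 to 15500 against 24300 to 157000 in KO. The part of myeloid or B lineage signal in the chemokine differences was not tested.

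**Figure D3:**
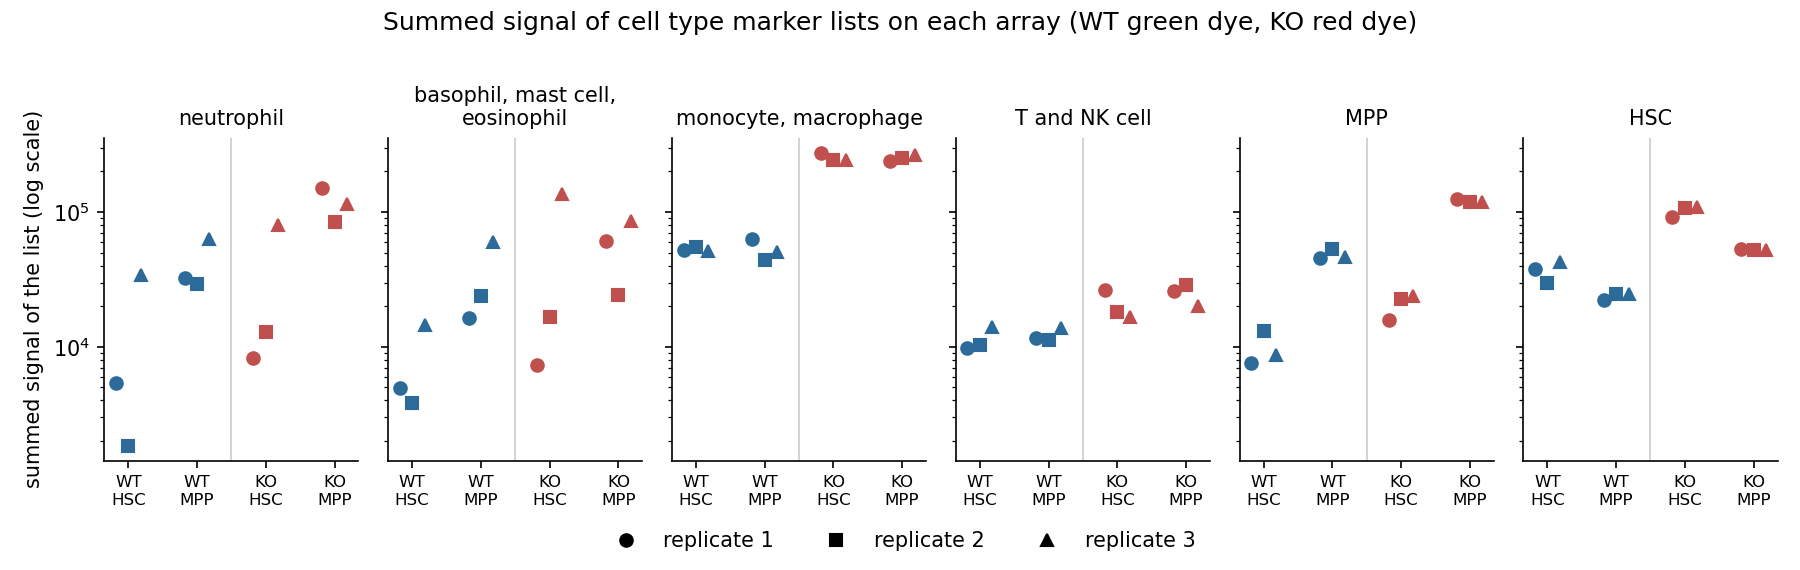
Summed signal (log axis) of 6 marker lists in each sample, by group, with the shape giving the replicate. HSC replicate 3 lies far above the other HSC samples for neutrophil genes (34100 in WT and 79900 in KO) and for basophil, mast cell and eosinophil genes, while monocyte and macrophage sums, which Itgam dominates in KO, overlap between populations.

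KO against WT was tested in each population on the ratio of the 2 dyes on the same spot, which the choice of the members did not use directly. No member passed at an adjusted p of 0.05, and neither did any other probe: 0% of 44641 were called in HSCs, in MPPs or for the difference between them. At an unadjusted p under 0.05, 7.34% of probes passed in HSCs, 4.81% in MPPs and 4.15% for the difference, and of the members only Ccl9 passed, for the difference. In simulated data of the same spread, no 4-fold change was recovered, whereas 88% of 16-fold changes were recovered in HSCs, 87% in MPPs and 61% for the difference. The simulation shifted few of the probes and drew independent noise, so recovery in these data may differ. The lack of calls therefore does not show that changes of 4-fold or less are absent.

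Ccl9 had log2 KO/WT ratios of 0.93, 0.09 and 3.20 on the HSC arrays and of -1.21, -0.22 and -1.16 on the MPP arrays. KO was thus the brighter channel on all 3 HSC arrays and the dimmer one on all 3 MPP arrays, an arrangement found for 1.16% of all probes. The HSC mean was 1.41 (SE 0.59, adjusted p = 0.676) and the MPP mean was -0.87 (SE 0.59, adjusted p = 0.992), by limma with Benjamini-Hochberg adjustment. The MPP effect minus the HSC effect was -2.27 (SE 0.83, unadjusted p = 0.0322, adjusted p = 0.968). The WT signal was not well above background on HSC replicates 2 and 3, so the ratios there are against a signal near background. Agilent's processed signals gave 2.58 in HSCs and -3.41 for the difference. The HSC value was 0.51 without HSC replicate 3 and 2.06 without HSC replicate 2, and the difference was -1.38 and -2.93. This difference is built from the same signals as the contrast that chose Ccl9, so it is not independent of that choice.

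Cxcr4 had ratios of -1.47, 0.14 and -1.50 on the HSC arrays and of -0.39, 2.16 and -1.21 on the MPP arrays. The signs were mixed in both populations, with means of -0.94 (SE 0.68, adjusted p = 0.743) and 0.19 (adjusted p = 1.00). The difference of 1.13 (SE 0.96, adjusted p = 0.968) did not show a larger population gap in KO. Without MPP replicate 2 the MPP mean of Cxcr4 turned to -0.80.

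Ccl4 had ratios of -0.62, 2.68 and -0.41 on the HSC arrays, followed by 2.43, 0.64 and 0.05 on the MPP arrays. All 3 MPP ratios were above 0, with a mean of 1.04 (SE 0.75, adjusted p = 0.994) that rested largely on MPP replicate 1 and was 0.34 without it. The HSC mean of 0.55 (adjusted p = 0.859) turned to -0.51 without HSC replicate 2 and was 1.19 with processed signals. The MPP effect minus the HSC effect of Ccl4 was 0.49 (limma, SE 1.06, adjusted p = 0.979), which did not show a larger population gap in KO. For Ccl3 the HSC arrays gave 0.02, -0.10 and -0.37, while the MPP arrays gave 0.63, -0.37 and -0.73. On HSC replicates 1 and 2 neither channel of Ccl3 was well above background, so those ratios say nothing of genotype. The fitted means were -0.15 in HSCs (SE 0.32, adjusted p = 0.914) and -0.16 in MPPs (SE 0.32, adjusted p = 0.999). The MPP mean of Ccl3 was 0.13 when arrays were centred on the median in place of loess.

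Ccl6 was brighter in KO on all 3 HSC arrays, at 0.64, 0.23 and 1.32 (mean 0.73, SE 0.44, adjusted p = 0.716). On the MPP arrays it stood at -0.11, 1.83 and 0.08 (mean 0.60, adjusted p = 0.994), which left -0.01 without MPP replicate 2. Ccl5 stood at 0.32, 0.58 and -0.40 in HSCs and at 0.27, -1.66 and -0.43 in MPPs, with means of 0.17 and -0.60 (adjusted p = 0.931 and 0.993). Ccr2 was tightly grouped in HSCs, at 0.10, 0.17 and 0.14, where it lay close to the dim end of the scale, and stood at 0.50, -0.32 and -0.78 in MPPs (adjusted p = 0.918 and 0.997). Ccr9 stood at 0.07, -0.08 and -2.10 in HSCs and at 0.52, -2.11 and -0.30 in MPPs, so that 1 array in each population set its means of -0.70 and -0.63 (adjusted p = 0.780 and 0.994).

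Across the 8 member probes, ratios had 1 sign on all 3 HSC arrays for Ccl6, Ccl9 and Ccr2, against 26.8% of all probes. They had 1 sign on all 3 MPP arrays for Ccl4 and Ccl9, against 29.1% of all probes. The members' median ratio was 0.15 in HSCs and -0.18 in MPPs, and that of all probes was -0.00 in both.

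**Figure D4:**
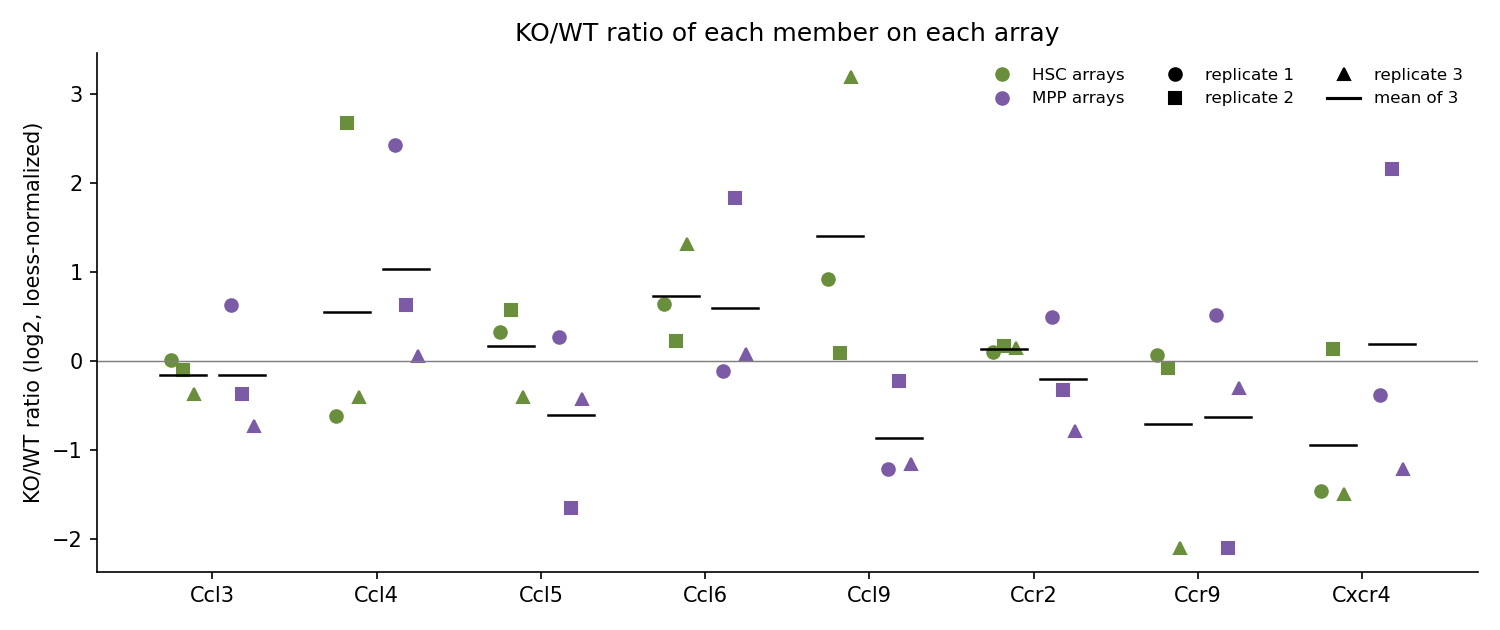
Log2 KO/WT ratio of the 8 member probes on each HSC array (green) and each MPP array (purple), with the shape giving the replicate and the line the mean of 3. Ccl9 lies above 0 on all 3 HSC arrays and below 0 on all 3 MPP arrays, and most other members straddle 0.

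The rest of the chemokine system was taken from lists of its ligands, receptors and signalling genes, each gene by its brightest probe. None of the 41 other chemokines and receptors that passed the filter was called between MPPs and HSCs in either genotype. Of 10 other CC ligands, 2 had a higher mean in WT MPPs and 8 a lower one, with a median of -0.35. Of 14 CXC, CX3C and XC ligands, 5 had a higher and 9 a lower mean, with a median of -0.13. Of 17 other receptors, 6 had a higher and 11 a lower mean, with a median of -0.09. The KO medians were -0.31, -0.21 and 0.03. The median of all probes was -0.08 in both genotypes.

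Of these 41 genes, 1 lay higher in every MPP sample of both genotypes, a share near the 2.57% of all probes that did so. This was Cxcr2, the receptor through which neutrophils sense CXC chemokines. Its means were higher by 1.75 in WT and 1.60 in KO (limma, adjusted p = 0.175 and 0.152). Ccl24, an eosinophil attractant, lay lower in every MPP sample of both genotypes, at -1.40 and -1.01 (adjusted p = 0.341 and 0.265). Neither passed the threshold. Cxcl12 and Ccl25, which bind Cxcr4 and Ccr9, had lower MPP means in WT at -0.49 and -0.90 (adjusted p = 0.364 and 0.338), and Ccl2, which binds Ccr2, stood at -0.93 (adjusted p = 0.439). These 3 ligands were chosen after their values were seen.

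Genes that carry the receptor signal showed no call either: of 23, 14 had a higher mean in WT MPPs and 13 in KO MPPs, with medians of 0.30 and 0.14. Elmo1, an adaptor that links receptors to Rac, lay lower in every MPP sample of both genotypes, at -0.49 and -0.25 (adjusted p = 0.375 and 0.703), but its WT value was 0.04 with median centring. Among 8 genes listed for cell adhesion or for retention in the marrow, 7 had a higher MPP mean in each genotype. Itgal, the alpha chain of the integrin LFA, rose by 2.91 in KO (SE 0.31, adjusted p = 0.0287) and stood 1.82 higher in WT (adjusted p = 0.252). Leaving out any 1 array ended the call of Itgal (adjusted p 0.0576 to 0.132), as did a term for slide row (adjusted p = 0.358). Cd44, the hyaluronan receptor, and Selplg, the P-selectin ligand, also lay higher in every MPP sample of both genotypes, by 1.82 and 1.12 in WT and by 0.44 and 0.93 in KO, without passing the threshold.

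**Figure D5:**
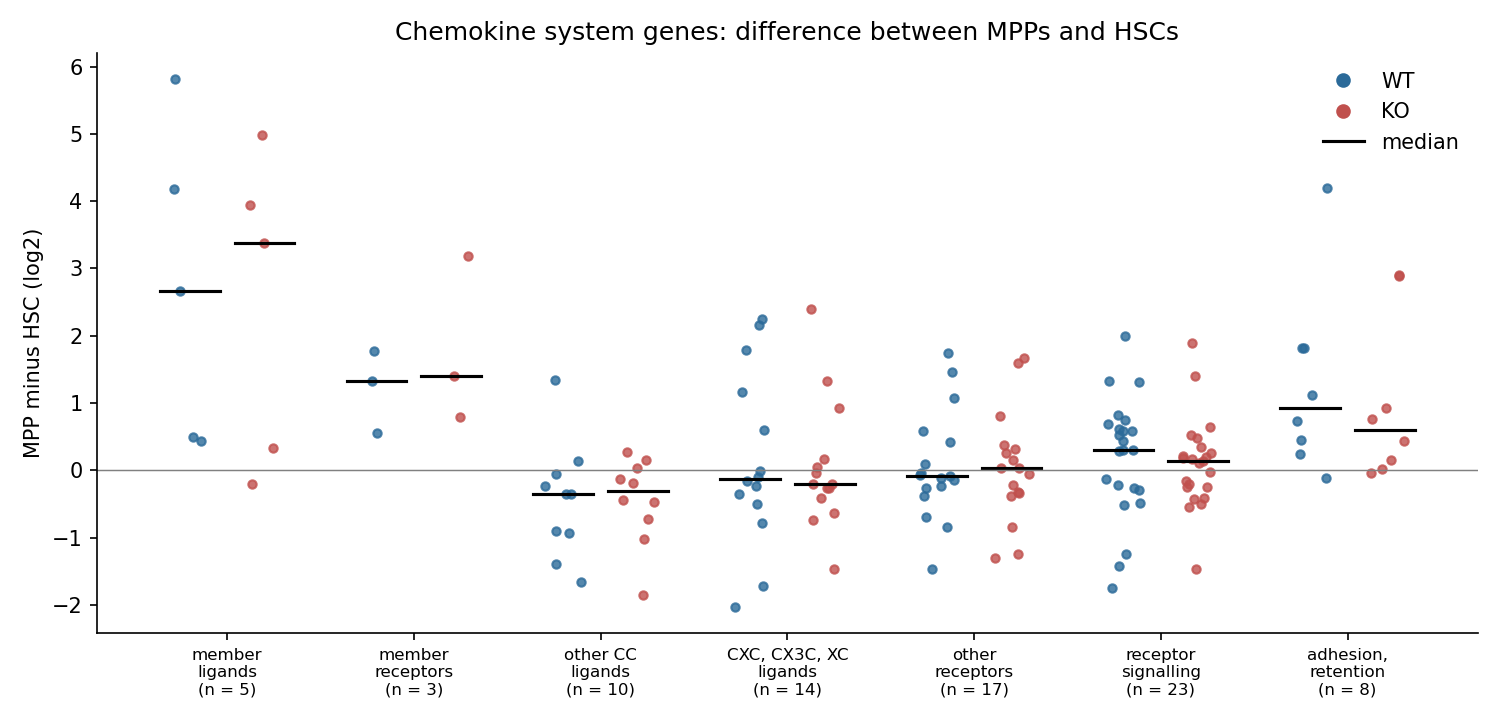
Difference between MPPs and HSCs (log2) for each gene of 7 lists in WT (blue) and KO (red), 1 point per gene by its brightest probe, with the line at the median of the list. The member ligands reach 5.81 in WT, and the other ligands and receptors spread on both sides of 0.

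For KO against WT, the gene with the smallest p in each list gave no call. Cd44 had ratios of 0.54, 0.94 and 0.83 on the HSC arrays and of -0.47, -1.31 and -0.68 on the MPP arrays, the same arrangement of signs as Ccl9, with a difference of -1.59 (SE 0.37, unadjusted p = 0.00438, adjusted p = 0.968). Ccl1 also had it, with a difference of -1.43 (SE 0.47, adjusted p = 0.968). Adrbk1, a kinase that switches off G protein-coupled receptors, had the reverse, with a difference of 2.01 (SE 0.51, adjusted p = 0.968). Cxcr6 differed by 1.87 (SE 0.62, adjusted p = 0.968). Cxcl11 had a mean MPP ratio of 0.99 (SE 0.34, adjusted p = 0.992) and was above 0 on all 6 arrays.

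The genes around the members were looked at after the data were seen. Between Ccl6 and Ccl3 on chromosome 11, a predicted gene stood at 0.19 in WT and -0.03 in KO. Mmp28, before Ccl5, stood at -0.97 and -0.30. Taf15, on the near side of Ccl5, had differences of 0.86 in WT and 2.15 in KO, with groups that did not overlap in KO. Expi, 185.5 kb beyond the Ccl5 probe and past Ccl4, had differences of 2.08 and 3.25, also without overlap in KO. A predicted gene 179.7 kb from that probe stood at 3.63 and 4.25 and did not overlap in either genotype. On chromosome 9, Ccr3 stood at 1.46 and 0.37, Xcr1 at 0.58 and 0.81 and Cxcr6 at -1.46 and 0.32, so the neighbours of Ccr2 had no common direction.

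Over the 12 levels of the 6 arrays, each dye centred on its mean, Ccl3 and Ccl4 correlated at 0.923, Ccl3 and Ccl9 at 0.882 and Ccl3 and Cxcr4 at 0.875. Ccl5 stood apart, with correlations of -0.05 with Ccl3 and -0.38 with Cxcr4. The 12 values share arrays and population, so these correlations are a description. Of 28977 gene names, those closest to Ccl3 were Fcgr3 (0.986), which encodes a low-affinity IgG receptor, Cd52 (0.978), Baz1a (0.967), Cpsf2 (0.961) and Bex6 (0.958). Those closest to Ccl9 were Akna (0.980), Sdccag8 (0.977), Serpinb1c (0.969), H2-Ab1 (0.969), which encodes an MHC class II chain, and Ubash3a (0.964), leaving out clones and predicted genes. For Cxcr4 they were Mterfd2 (0.962), Psmc3ip (0.944), Atp5f1 (0.943), Slc25a15 (0.940) and Ndufa4 (0.940).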

How the data were processed

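Gene expression was measured on 6 two-colour Agilent arrays, with KO in red and WT in green. The deposited scanner files hold, per spot, the mean signal intensity and background intensity of each dye, and the authors' log10 ratio. They were written by Agilent Feature Extraction 10.7.3.1 per the file headers, whereas version 8.5.1.1 is given in the submitters' processing notes. The authors' deposited series table held the same log10 ratio and was used only for that check. Marks for outlier spots and for signals well above background were used as deposited.

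Of 62976 spots, 3671 controls were left out after background correction. Signals were corrected with normexp (offset 50), made into log2 ratios with loess, or quantile-normalized per dye for log2 levels, and spots of a probe were averaged (limma 3.58.1, R 4.3.3). A probe was kept if well above background on all 3 arrays of at least 1 group and measured on all 6 arrays (44641 probes). Tests used lmFit and eBayes, fitting each population's mean without a block. Benjamini-Hochberg adjustment ran over all kept probes. The script was tested on simulated data. The number of arrays limits the precision, and the p-values measure only the spread between these samples. Alternatives were Agilent's processed signals, median centring, no filter, marked spots kept, the brightest probe per gene, a replicate block, a slide row term and leaving out each array.

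The members and gene lists were chosen with earlier results of these data known. Named are all member probes, of each list up to 4 genes with the smallest p for KO against WT in MPPs or for the difference, and up to 4 with the largest MPP difference that did not overlap in either genotype. The 5 closest genes by correlation are named too, leaving out clones and predicted genes. Summed marker signals are linear and were taken over the brightest probe of each gene. Some genes of the lists are not reported here by name.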

Additional observations from a re-analysis of the deposited data

Results flagged for a closer look

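Ccl9 had KO/WT ratios above 0 on all 3 HSC arrays and below 0 on all 3 MPP arrays, and the MPP effect minus the HSC effect was -2.27 (limma, adjusted p = 0.968). Ccl1 (-1.43) and Cd44 (-1.59) had the same arrangement of signs. Adrbk1 had the opposite arrangement (2.01). None of the 4 differences passed the adjusted test, and 1.16% of all probes had the arrangement of Ccl9.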

How the results depend on the processing

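The differences between MPPs and HSCs of Ccl3, Ccl4, Ccl9, Ccr2 and Cxcr4 kept their sign in both genotypes under every alternative that was run, and so did all 3 KO/WT values of Ccl9. No alternative brought a member's KO/WT test past the threshold. Dim HSC signals (Ccl3, Ccl9 in WT, Cxcr4) limit what can be said of HSC levels.

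Several KO/WT values of small size changed sign, and the cause was not tested. With Agilent's processed signals the MPP effect minus the HSC effect was -0.068 for Ccl4 and -0.011 for Cxcl11. Median centring, which moved the median of all probes by 0.24 in HSCs and 0.21 in MPPs, gave MPP ratios of 0.13 for Ccl3 and 0.073 for Ccr2, differences of 0.55, 0.065 and -0.092 for Ccl3, Ccr2 and Cxcl11, and 0.038 for Elmo1 between WT MPPs and HSCs. A slide row term gave differences of 0.78, 0.11, 0.36 and -0.47 for Ccl3, Ccl5, Ccr2 and Cxcl11. With 1 array left out, HSC ratios ranged from -0.51 to 1.14 for Ccl4 and from -0.039 to 0.45 for Ccl5. MPP ratios ranged from -0.55 to 0.13 for Ccl3, -0.014 to 0.96 for Ccl6, -0.55 to 0.088 for Ccr2, -1.21 to 0.11 for Ccr9 and -0.80 to 0.89 for Cxcr4. The differences ranged from -0.40 to 0.28 for Ccl3, -0.21 to 1.55 for Ccl4, -0.74 to 0.23 for Ccl6, -0.63 to 0.81 for Ccr9 and -0.10 to 0.49 for Cxcl11.

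The count of all probes called between MPPs and HSCs was 126 in WT and 157 in KO. Without the filter on dim probes, which tests more probes, it was 63 and 85. With a slide row term it was 0 and 0. With 1 array left out it ranged from 0 to 113 in WT and from 36 to 129 in KO. With the replicate block it was 0 and 0. Deviations of same-numbered HSC and MPP samples correlated at 0.16, 0.04 and 0.11 in WT and at 0.04, 0.09 and -0.01 in KO, so the numbers were not taken to pair the samples.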
